A study of Arabidopsis thaliana with 12 samples.

Results

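Tau-class glutathione transferases were examined in whole seedlings of Arabidopsis thaliana (wild type, Col-0). The genes were taken from a list of 10 loci (GSTU1, GSTU2, GSTU4, GSTU5, GSTU7, GSTU8, GSTU10, GSTU19, GSTU24 and GSTU25), of which 5 had counts among the 12905 genes of the series, namely GSTU7, GSTU10, GSTU19, GSTU24 and GSTU25. GSTU1, GSTU2, GSTU4, GSTU5 and GSTU8 are not analysed here. Seedlings were 2 weeks old and were kept for 2 h in light of 30 µE in cycloheximide (CHX), an inhibitor of translation by cytosolic ribosomes, at 0, 1, 10 or 100 µM. Each dose had 3 libraries, 12 in all, and the seedlings of all doses had first been equilibrated in water. Groups follow the doses in the labels, although the study's own list of records ties this record to another experiment. The study's methods describe biological replicates of several whole seedlings each for RNA extraction and qRT-PCR and do not repeat this for the sequencing libraries, so a p-value is taken here as reflecting the spread among libraries.

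Glutathione transferases join the tripeptide glutathione to reactive or foreign compounds, and the conjugates are carried into the vacuole by pumps of the ABCC family. The tau class is specific to plants and is one of the largest classes of the family. Many of its genes are known for induction by herbicides, safeners and oxidised lipids, in part through TGA transcription factors, which bind the motif TGACG.

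The libraries read the 3′ ends of transcripts, and the level of a gene is its CPM, that is, its counts set relative to the size of the library as corrected for composition by TMM. A level is compared between doses and not between genes. Totals lay between 1073063 and 3724564 counts per library, and 1 count was worth 0.318 to 0.794 CPM. A sum of 3 counts over the 3 libraries of a dose was taken as the floor, which was 0.430, 0.358, 0.361 and 0.606 CPM from the lowest to the highest dose. Where 1 of the groups compared had 0 counts, the floor of 3 counts took its place. Such a bound, written as at least a fold, leaves out the counting error of the other group. Floors and counting intervals cover counting error only, with each read taken as independent. Since PCR copies may be included in the counts, these intervals may be too narrow and the floors too low. Intervals of edgeR folds also take in the spread among libraries. A gene was called higher or lower when its edgeR quasi-likelihood test had a Benjamini-Hochberg adjusted p under 0.05 over all 12905 genes and its change was at least 2-fold. The 4 summed shoot markers lay at 7262 to 7835 CPM at 100 µM, against 12618 to 14678 CPM at 0 µM. They lay at 8328 to 11234 CPM in libraries of 1 µM and at 8559 to 10949.5 CPM in those of 10 µM. Most of this sum came from RBCS1A, and CA1 went the other way, with 409 ± 39.3 CPM at 100 µM and 238 ± 10.00 CPM at 0 µM (SD, n = 3 each). The 5 summed root markers lay at 27.8 to 40.8 CPM at 100 µM, against 61.7 to 77.5 CPM at 0 µM, with 52.0 to 76.2 CPM at 1 µM and 24.7 to 39.1 CPM at 10 µM. They did not move alike. From 0 to 100 µM the mean of CASP1 went from 23.6 to 5.83 CPM and that of RCI3 from 22.9 to 12.6 CPM. NRT2.1 went from 10.3 to 4.94 CPM, TIP2;3 from 7.66 to 6.31 CPM and PYK10 from 5.59 to 5.83 CPM. None of these markers was at 0 at any dose. In whole seedlings, fewer cells of a type and less RNA per cell cannot be told apart, and the part of these shifts in the results was not tested.

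Each of the 5 genes has 2 exons in the RefSeq annotation of the TAIR10.1 build. GSTU24 (AT1G17170, chr1:5869543-5870883, plus strand) and GSTU25 (AT1G17180, chr1:5872024-5873124, plus strand) are neighbours. GSTU10 (AT1G74590, chr1:28023627-28024860) and GSTU19 (AT1G78380, chr1:29486387-29488007) lie on the minus strand of the same chromosome, and GSTU7 (AT2G29420, chr2:12617936-12618899) on the minus strand of chromosome 2. Coding sequences of GSTU24 and GSTU25 were 80.5% identical, those of GSTU19 and GSTU24 77.2% and those of GSTU19 and GSTU25 76.8%, while the pairs with GSTU7 or GSTU10 were 62.1% to 64.3% identical. The longest exact run that a member transcript shared with any other of the 28 tau-class transcripts was 32 bases, and 20 bases within the last 300 bases, against 75 sequencing cycles. The start of GSTU10 overlaps the gene AT1G74600 on the same strand by 21 bases, and a read over these bases could come from either gene.

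The 250 bases before the annotated start were searched for TGACG on both strands. It was in 3 of the 5 windows, those of GSTU7, GSTU24 and GSTU25, and in 18.6% of the 27437 windows of this length before protein-coding genes. The windows of GSTU7, GSTU19 and GSTU25 are shown because they lie outside other protein-coding genes and differ in the motif. TGACG on either strand is in capitals (RefSeq, TAIR10.1, 5′ to 3′ on the strand of the gene).
GSTU7 (chr2:12618900-12619149, minus strand): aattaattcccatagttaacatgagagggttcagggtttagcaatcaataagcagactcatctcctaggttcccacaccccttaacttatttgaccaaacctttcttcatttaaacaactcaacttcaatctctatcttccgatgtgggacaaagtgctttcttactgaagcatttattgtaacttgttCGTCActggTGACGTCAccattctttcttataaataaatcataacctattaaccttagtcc
GSTU19 (chr1:29488008-29488257, minus strand): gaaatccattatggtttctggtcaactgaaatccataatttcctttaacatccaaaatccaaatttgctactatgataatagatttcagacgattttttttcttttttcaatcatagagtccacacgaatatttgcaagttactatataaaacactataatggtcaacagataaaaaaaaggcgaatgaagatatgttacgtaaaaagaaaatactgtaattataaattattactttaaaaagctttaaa
GSTU25 (chr1:5871774-5872023, plus strand): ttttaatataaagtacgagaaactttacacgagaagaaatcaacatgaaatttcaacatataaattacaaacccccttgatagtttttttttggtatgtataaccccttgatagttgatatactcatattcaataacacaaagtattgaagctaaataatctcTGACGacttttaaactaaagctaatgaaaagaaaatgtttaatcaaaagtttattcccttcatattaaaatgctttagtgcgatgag
The window of GSTU7 overlaps a non-coding RNA gene, AT2G00850, by 92 bases. GSTU7 held 3 matches, at 61 to 57, 52 to 48 and 49 to 45 bases before the start, of which the last 2 overlap. GSTU25 held 1, at 87 to 83 bases. The match of GSTU24, at 169 to 165 bases, lies inside the neighbouring gene AT1G17160. The windows of GSTU24 and GSTU10, the second of which lies wholly inside AT1G74600 and held no match, are not printed. A match is a description of the sequence and not a binding site.

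GSTU10 was the 1 member called higher than 0 µM at every dose. It had 13.03, 3.76 and 9.84 CPM at 0 µM, 48.4, 54.0 and 67.7 CPM at 1 µM, 97.8, 93.1 and 132.9 CPM at 10 µM, and 74.6, 74.5 and 93.0 CPM at 100 µM. Every treated library was above every library at 0 µM. The log2 change from edgeR was 2.57 ± 0.28 at 1 µM (SE, adjusted p = 2.2e-07), 3.496 ± 0.276 at 10 µM (adjusted p = 6.8e-10) and 3.08 ± 0.28 at 100 µM (adjusted p = 6.3e-09), each against 0 µM. These are 5.93-fold (95% interval 3.97 to 8.87), 11.3-fold (7.57 to 16.8) and 8.46-fold (5.65 to 12.7). The level was highest at 10 µM, then at 100 µM, 1 µM and 0 µM. The difference of 100 from 10 µM was −0.41 ± 0.23 (adjusted p = 0.31), and that of 100 from 1 µM was 0.51 ± 0.23 (adjusted p = 0.096), so the test did not separate these neighbours in the order. At 10 against 1 µM the change of 0.93 ± 0.23 (adjusted p = 0.0039) was under 2-fold, although the libraries did not overlap. It was 1.23 with scaling to the listed reference genes, 1.10 without 1 µM replicate 3 and 1.02 without 10 µM replicate 2, each then called.

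**Figure D1:**
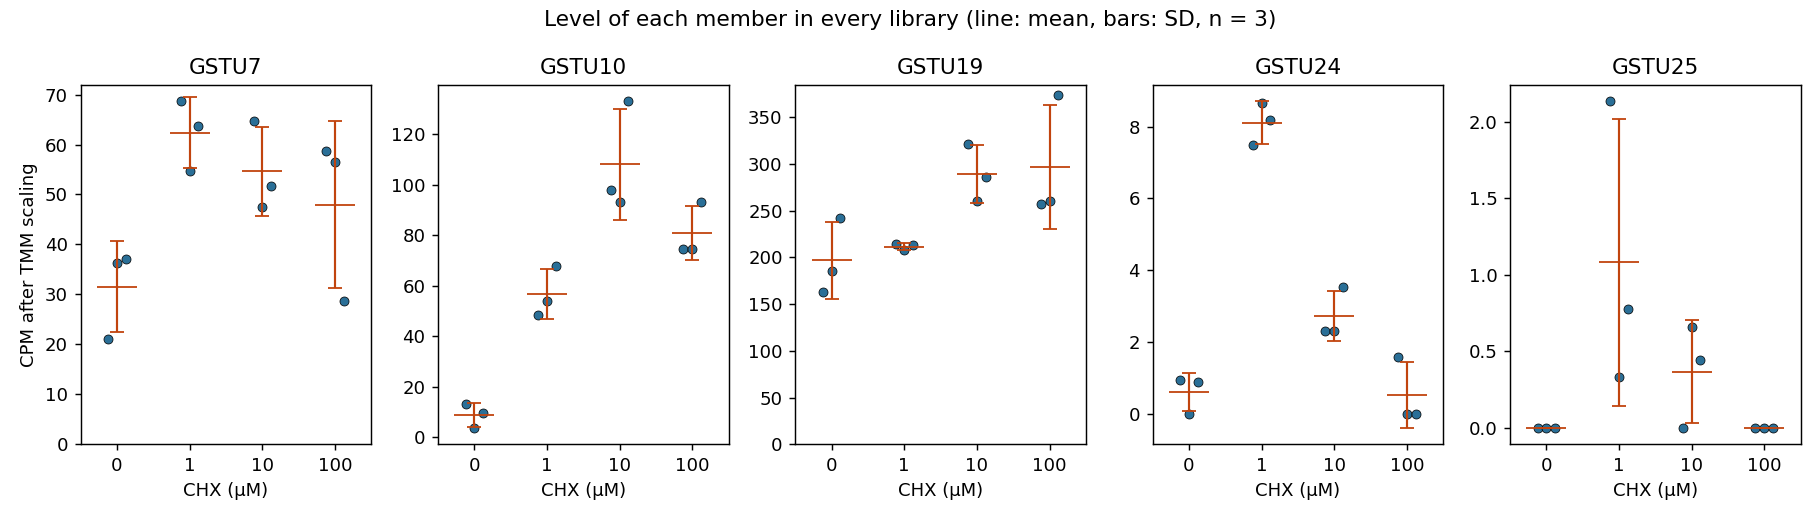
CPM after TMM scaling (y axis, a separate scale for each gene) of the 5 measured tau-class genes in every library by CHX dose (x axis, µM). Points are libraries, lines are means and bars SD of 3 libraries. GSTU10 lies between 48.4 and 132.9 CPM in the treated libraries, GSTU24 is highest at 1 µM, and GSTU25 is at 0 in all libraries at 0 and 100 µM.

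GSTU24, whose enzyme is known to act on the explosive trinitrotoluene, was higher than in untreated seedlings at 1 µM and was not called at 100 µM. It had 3, 0 and 2 counts at 0 µM, 21, 26 and 21 counts at 1 µM, 7, 7 and 8 counts at 10 µM, and 2, 0 and 0 counts at 100 µM. The means were 0.616 ± 0.534, 8.10 ± 0.599, 2.72 ± 0.703 and 0.529 ± 0.917 CPM (SD, n = 3 each) in the same order of doses. All libraries at 1 µM lay above all others, and those at 100 µM overlapped those at 0 µM. The change at 1 against 0 µM was 3.43 ± 0.63 (adjusted p = 0.00024). At 10 against 0 µM it was 1.85 ± 0.72 (adjusted p = 0.040), a call that was lost without any 1 of the 10 µM or 0 µM libraries or without 1 µM replicate 2 (adjusted p 0.053 to 0.11), and with DESeq2 (0.061), total-count scaling (0.24), only the 2 doses compared (0.058) or thinned libraries (0.17).

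GSTU24 was called lower at both higher doses than at 1 µM. At 10 against 1 µM it was lower by the test, with a change of −1.58 ± 0.49 (adjusted p = 0.019), which missed the threshold with reference-gene scaling (0.068), DESeq2 (0.051) or thinned libraries (0.070) and without 1 µM replicate 2, 10 µM replicate 1 or 10 µM replicate 2 (0.062 to 0.077). The 3 libraries at 100 µM held 2 counts and those at 1 µM 68 counts, a level 20.1 times lower at 100 µM (95% counting interval 5.35 to 169, edgeR adjusted p = 0.00018). This was 12.0 times without 100 µM replicate 2, 13.2 times without replicate 3 and at least 9.99 times without replicate 1, which held both counts. Against 10 µM, with 22 counts, the level at 100 µM was 6.56 times lower (1.61 to 57.5), or 3.93 times without 100 µM replicate 2, 4.29 times without replicate 3 and at least 3.26 times without replicate 1. Here the call was missed (adjusted p = 0.081) and was made only without 100 µM replicate 1 among the libraries left out (adjusted p = 0.012). At 100 against 0 µM, 2 counts stood against 5, a ratio of 0.563 with a counting interval of 0.0536 to 3.44. The comparison of 100 with 1 µM was added after the table was seen.

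GSTU25, next to GSTU24 on the chromosome and also known for acting on trinitrotoluene, was near the limit of detection. It had 6, 1 and 2 counts at 1 µM, 0, 2 and 1 counts at 10 µM, and 0 in all libraries at 0 and at 100 µM, which allows up to 0.430 and 0.606 CPM. Genes were kept with at least 5 reads in at least 1 library, and GSTU25 reached this only in 1 µM replicate 1. A higher level at 1 µM was thus partly set by this filter, and the p-values of comparisons with 1 µM are no support for it. Against the floor of 3 counts at 0 µM, the 9 counts at 1 µM gave a bound of 2.50-fold higher (edgeR adjusted p = 0.077). The bound takes the 9 counts as exact, so it is no lower limit of the change. Leaving out 0 µM replicate 1 brought this bound to 1.37-fold. Without 1 µM replicate 1, which held 6 of these counts, 3 counts remained and no fold is given. For 100 against 1 µM the bound, of the same kind, was 1.77-fold lower (edgeR adjusted p = 0.094). It was 1.06-fold without 100 µM replicate 2 and 1.16-fold without replicate 3, with no fold left without 1 µM replicate 1. Other differences of GSTU25 were not detectable at this depth.

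GSTU7 was called higher at 1 µM, by just over 2-fold. It had 21.0, 36.4 and 37.1 CPM at 0 µM, 68.7, 54.7 and 63.8 CPM at 1 µM, 64.6, 47.5 and 51.7 CPM at 10 µM, and 58.8, 56.4 and 28.7 CPM at 100 µM. All libraries at 1 and 10 µM were above those at 0 µM, and 1 of the 3 at 100 µM was not. The change at 1 against 0 µM was 1.01 ± 0.25 (adjusted p = 0.0049), 2.01-fold with a 95% interval of 1.40 to 2.90. This call rests on the 2-fold limit, since the change was 0.79 without 0 µM replicate 1, 0.98 without 1 µM replicate 1, and 0.67 to 0.98 with RLE, reference-gene or total-count scaling, a stricter filter (filterByExpr), DESeq2 or thinned libraries. At 10 against 0 µM it was 0.82 ± 0.25 (adjusted p = 0.012, under 2-fold, but 1.06 with reference-gene scaling and 1.03 without 0 µM replicate 3), and at 100 against 0 µM 0.62 ± 0.26 (adjusted p = 0.056). Between treated doses, the change was −0.19 ± 0.24 at 10 against 1 µM (adjusted p = 0.61) and −0.20 ± 0.25 at 100 against 10 µM (adjusted p = 0.72), with 95% intervals of 0.620- to 1.24-fold and 0.608- to 1.25-fold.

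GSTU19, which held most of the counts of these genes, changed by less than 2-fold at each dose. This enzyme is known for its part in tolerance of salt and drought. It had 162.7, 185.6 and 242.4 CPM at 0 µM, 213.9, 207.7 and 213.2 CPM at 1 µM, 321.9, 260.5 and 285.7 CPM at 10 µM, and 257.3, 259.9 and 373.7 CPM at 100 µM. The libraries at 10 and 100 µM were all above those at 0 µM, and those at 1 µM lay within the range at 0 µM. The change was 0.10 ± 0.19 at 1 µM (adjusted p = 0.73), 0.56 ± 0.19 at 10 µM (adjusted p = 0.019) and 0.59 ± 0.19 at 100 µM (adjusted p = 0.012) against 0 µM, or 1.51-fold at 100 µM (95% interval 1.15 to 1.98). At 100 against 10 µM it was 0.04 ± 0.19 (adjusted p = 0.94), with an interval of 0.785- to 1.34-fold. The changes against 1 µM were 0.45 ± 0.19 at 10 µM (adjusted p = 0.077) and 0.49 ± 0.19 at 100 µM (adjusted p = 0.047), both under 2-fold and without overlap of the libraries.

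Counted over the members, 3 of 5 were called higher at 1 against 0 µM (GSTU7, GSTU10 and GSTU24), where 13.5% of all genes were called higher. At 10 against 0 µM 2 were called higher (GSTU10 and GSTU24, background 22.4%), and at 100 against 0 µM 1 was (GSTU10, background 23.8%). No member was called lower in these comparisons, with backgrounds of 3.12%, 12.1% and 14.9%. GSTU24 was the 1 member called lower at 10 against 1 µM (4.98% of all genes) and at 100 against 1 µM (9.38%). No member was called higher at 10 against 1 µM (12.2%) or at 100 against 1 µM (15.4%), and none was called at 100 against 10 µM, where 2.19% of genes were called higher and 2.48% lower. By edgeR's test without adjustment (p under 0.05) 0 members were lower at any dose against 0 µM, 2 were higher at 10 against 1 µM, 2 at 100 against 1 µM, and 1 was lower and 0 higher at 100 against 10 µM. DESeq2 with the stricter rule of a call (adjusted p under 0.05 and at least 2-fold) gave 0 in each of these cases, as edgeR did under that rule. With the adjusted p alone, 3, 4 and 2 members were higher than at 0 µM at 1, 10 and 100 µM, where 17.2%, 26.0% and 27.6% of all genes were higher and 7.68%, 19.8% and 21.3% lower. That rule gave 1 member higher and 1 lower at 10 against 1 µM (15.6% and 12.1% of all genes), 0 of either kind at 100 against 10 µM (4.89% and 3.75%), and 1 higher and 1 lower at 100 against 1 µM (19.3% and 16.0%). The median log2 change of the members against 0 µM was 2.57, 1.85 and 0.59 at 1, 10 and 100 µM, while that of all genes was 0.02 at each dose. With GSTU25 at its bound at 1 µM, and left out where no fold could be given, the medians were 1.32, 1.33 and 0.61. GSTU25, kept only through a library of 1 µM, is part of the first medians and of the 1.32. The members were also chosen with earlier results of these data known, so the medians are descriptions and no test against all genes. In the joint test for any difference between doses, 4 of 5 members passed (GSTU7, GSTU10, GSTU19 and GSTU24), and 52.9% of all genes did. The summed counts of the 5 genes were 0.0349% ± 0.00512, 0.0395% ± 0.00153, 0.0371% ± 0.00289 and 0.0304% ± 0.00321 of the library total (SD, n = 3 each), from the lowest to the highest dose. Without GSTU19 they were 0.00602% ± 0.000642, 0.0149% ± 0.000974, 0.0135% ± 0.00155 and 0.00927% ± 0.00104.

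The directions depend on the scaling for the members with small changes. With total-count scaling the median of all genes moved to −0.31, −0.82 and −1.01 for 1, 10 and 100 µM against 0 µM, and with reference-gene scaling to −0.05, 0.23 and 0.24. That scaling uses the sum of 9 genes, which was mostly EF1A. At 0 µM EF1A lay at 1678 to 2549 CPM and the sum at 2225 to 3083 CPM. With TMM, 1, 1 and 2 of these 9 genes were called lower at 1, 10 and 100 against 0 µM, so they are no steady panel. Genes called higher were 61.5% of those called at 100 against 0 µM, 71.9% with reference-gene scaling and 24.7% with total-count scaling. At 10 against 0 µM these shares were 64.9%, 76.0% and 27.6%, and at 1 against 0 µM 81.3%, 75.3% and 52.0%. With total-count scaling GSTU19 had changes of −0.23, −0.29 and −0.45 at 1, 10 and 100 µM, and GSTU7 had changes of −0.03 and −0.40 at 10 and 100 µM, each above the median of all genes under that scaling. GSTU10 was called higher at every dose under each scaling.

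Ratios between members within a library, which do not depend on the scaling apart from a prior of 0.5 CPM, were compared over the 4 doses with an exact permutation test of the 12 libraries (15400 partitions). The pair of neighbours, GSTU24 to GSTU25, was chosen from the gene map, and the 9 others were added after the table was seen. Of the 10 pairs, 7 differed between doses at an adjusted p under 0.05 over the pairs. Both genes had counts in all 12 libraries for 2 of these (GSTU10 to GSTU19 and GSTU7 to GSTU10) and in 9 for the 3 pairs with GSTU24. The other 2 have GSTU25 as partner, with counts of both genes in 5 libraries, so that the prior stands for GSTU25 elsewhere and they are no comparison of 2 measured levels. The log2 ratio of GSTU10 to GSTU24 was 3.07 ± 0.17, 2.72 ± 0.22, 5.08 ± 0.04 and 6.65 ± 1.29 at 0, 1, 10 and 100 µM (SD, n = 3 each, exact permutation adjusted p = 0.0013). At 0 and 100 µM the mean of GSTU24 was 0.616 and 0.529 CPM, close to the prior. Each ratio with GSTU24 thus rests in good part on the prior at these 2 doses, and another prior was not tried for GSTU10 to GSTU24. The ratio of GSTU10 to GSTU19 was −4.53 ± 0.93, −1.90 ± 0.24, −1.43 ± 0.31 and −1.86 ± 0.12 in the same order (exact permutation adjusted p = 0.0051). The ratio of GSTU7 to GSTU10 was 1.88 ± 1.22, 0.14 ± 0.31, −0.97 ± 0.38 and −0.81 ± 0.76 (exact permutation adjusted p = 0.0051). GSTU24 to GSTU25 missed the threshold (exact permutation p = 0.12, adjusted p = 0.14), as did GSTU7 to GSTU19 (adjusted p = 0.14) and GSTU7 to GSTU25 (adjusted p = 0.35). Where a gene had 0 counts, the ratio is set by the prior, and with a prior of 2 CPM the test of GSTU24 to GSTU25 gave an exact permutation p of 0.0050.

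**Figure D2:**
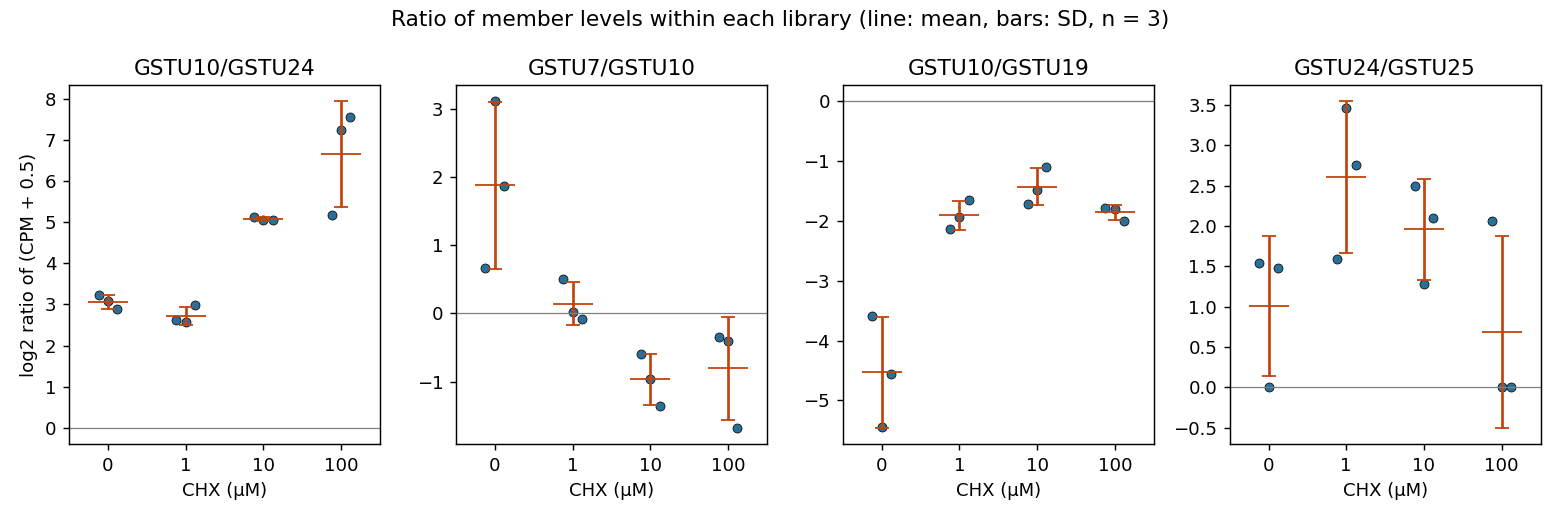
Log2 ratio of 2 member levels (CPM + 0.5) within each library (y axis, a separate scale for each pair) by CHX dose (x axis, µM). Points are libraries, lines are means and bars SD of 3 libraries. GSTU10 to GSTU24 is near 3 at 0 and 1 µM and at 5.08 ± 0.04 at 10 µM, while GSTU24 to GSTU25 overlaps between doses.

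Of the 18 other tau-class genes, 8 were measured, and they split by direction. At 10 against 0 µM 4 were called higher (GSTU9, GSTU11, GSTU12 and GSTU13) and 3 lower (GSTU14, GSTU17 and GSTU18). At 1 µM the count was 4 higher and 0 lower, and at 100 µM 3 higher and 2 lower, each against 0 µM. For this list and those below, the shares over all genes were 13.5%, 22.4% and 23.8% higher at 1, 10 and 100 µM. They were 3.12%, 12.1% and 14.9% lower. The medians were 0.80, 0.45 and 0.16. By edgeR's test without adjustment 2 were lower at 1 µM (p under 0.05). With total-count scaling the counts were 3 and 2 at 1 µM, 3 and 4 at 10 µM and 3 and 4 at 100 µM.

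GSTU12 had 7.52 to 12.5 CPM at 0 µM, 287.6 to 375.8 CPM at 1 µM, 497.9 to 611.8 CPM at 10 µM and 132.6 to 264.9 CPM at 100 µM. Its change at 10 against 0 µM was 5.88 ± 0.29 (adjusted p = 2.3e-13), and at 100 against 10 µM it was lower by the test (−1.38 ± 0.22, adjusted p = 0.00030). GSTU11, next to GSTU12 on the chromosome, had 3 counts over the libraries at 0 µM and 333 at 100 µM, a ratio of 156 with a lower counting limit of 53.0. All 3 counts were in 0 µM replicate 3, without which the ratio was at least 106, and it was 85.8 without 0 µM replicate 1. GSTU9 had 0 counts at 0 µM and was at least 40.9-fold higher at 10 µM and at least 13.6-fold higher at 100 µM, bounds that were 22.4 and 7.48 without 0 µM replicate 1. GSTU13, known for a role in indole glucosinolate metabolism, was at 109.9 to 149.2 CPM at 0 µM, 276.2 to 312.8 CPM at 1 µM, 356.0 to 535.5 CPM at 10 µM and 162.0 to 184.8 CPM at 100 µM. It was called at 1 and 10 µM, and its change at 100 against 10 µM was −1.34 ± 0.18 (adjusted p = 5.2e-05). At 100 against 10 µM 3 of these 8 genes were called lower (GSTU9, GSTU12 and GSTU13) and 0 higher, where 2.48% of all genes were called lower and 2.19% higher.

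The genes called lower included GSTU17, known for a role in light and abscisic acid signalling. It was at 1.17 to 5.56 CPM at 100 µM, against 23.8 to 26.8 CPM at 0 µM (−2.60 ± 0.45, adjusted p = 5.4e-05). GSTU17 and GSTU18 overlap by 71 bases on the same strand, so their counts are uncertain there. GSTU18 changed by −1.44 ± 0.39 (adjusted p = 0.0040) and GSTU14 by −1.19 ± 0.48 (adjusted p = 0.048) at 10 against 0 µM, and neither was called at 100 µM. The call of GSTU14 was lost without any 1 of 8 libraries (adjusted p 0.053 to 0.18), and its change was −1.89 without 10 µM replicate 1. GSTU20, which lies next to GSTU19 and is known to bind the jasmonate-conjugating enzyme JAR1, was at 11.1 to 19.9 CPM at 100 µM, against 22.6 to 37.0 CPM at 0 µM. Its change of −1.01 ± 0.30 (adjusted p = 0.0081) was just past the 2-fold limit, and the call was lost without 0 µM replicate 2 or 3 or 100 µM replicate 2 (changes of −0.79 to −0.90). With reference-gene scaling 1 of these 8 genes was called lower at 100 µM, instead of 2.

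**Figure D3:**
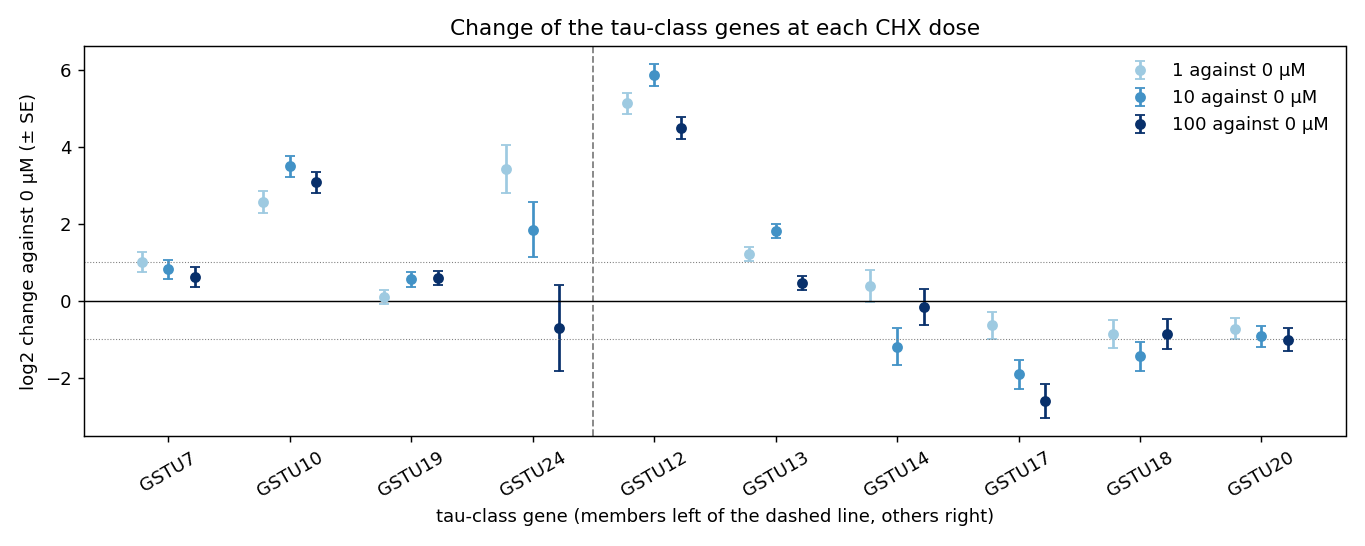
Log2 change against 0 µM (y axis, ± SE from edgeR) of the tau-class genes with over 3 counts at 0 µM (x axis), at 1, 10 and 100 µM CHX. Dotted lines mark 2-fold, members are left of the dashed line, and the 100 µM value of GSTU24 rests on 2 against 5 counts. GSTU12 has the highest points, up to 5.88, and GSTU17 the lowest, down to −2.60.

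In the phi class, the other large plant class of glutathione transferases, 10 of 13 genes were measured. Of these, 4 were called higher and 0 lower at 1 µM, 7 and 1 at 10 µM, and 4 and 2 at 100 µM against 0 µM, with medians of 0.97, 1.82 and 0.66. Without 0 µM replicate 1 the calls of GSTF7 (adjusted p = 0.059) and GSTF13 (adjusted p = 0.12) at 1 µM were lost. At 100 µM the call of GSTF5, higher, was lost without 0 µM replicate 1 or 100 µM replicate 2 or 3 (adjusted p 0.067 to 0.10). That of GSTF11, lower, was lost without 0 µM replicate 2 or 100 µM replicate 2 or 3 (adjusted p 0.057 to 0.15). GSTF8, known for rapid induction by stress, was raised by 3.24 ± 0.22 at 100 against 0 µM (adjusted p = 4.6e-11), and GSTF13 by 5.81 ± 0.32 (adjusted p = 1.7e-12). GSTF6, known for a step of camalexin synthesis and a close copy of its neighbour GSTF7, so that the split of reads is uncertain, rose by 1.60 ± 0.29 (adjusted p = 7.6e-05), and GSTF9 was lower, at −2.33 ± 0.26 (adjusted p = 1.8e-07). Of the 12 genes of the other classes, 5 were measured, and 0 were called at 1 µM, 2 were higher at 10 µM and 1 (GSTL2) was higher at 100 µM. GSTL2 had 19 counts at 100 µM and 1 at 0 µM. The ratio was 26.8, with a lower counting limit of 4.25, and was 14.7 without 0 µM replicate 1 and at least 6.06 without replicate 3, which held the 1 count. Its call at 10 µM was lost without 0 µM replicate 1, 0 µM replicate 2 or 10 µM replicate 1 (adjusted p 0.075 to 0.25). The medians of these 5 genes were −0.19, −0.45 and −0.21, and 0.28, −0.45 and −0.48 with genes of few counts at their bound or left out.

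Of 8 genes for the synthesis and turnover of glutathione, 7 were measured. At each dose 2 were called higher against 0 µM, and 0, 1 and 0 lower at 1, 10 and 100 µM, with medians of 0.20, 0.89 and −0.52. GGT1, a transferase that breaks down glutathione outside the cell, was raised by 6.18 ± 0.29 at 100 against 0 µM (adjusted p = 1.1e-13), and PCS1, which makes phytochelatins from glutathione, by 4.99 ± 0.48 (adjusted p = 1.6e-08), or 5.96 without 0 µM replicate 1. GSH1, the first enzyme of glutathione synthesis, had −0.52 ± 0.18 (adjusted p = 0.020, under 2-fold). Of 8 ABCC pumps 5 were measured, with 1 higher and 0 lower at 1 and at 10 µM and 1 and 1 at 100 µM, and medians of −0.45, −0.15 and −0.79. ABCC3 was raised by 4.72 ± 0.38 at 100 against 0 µM (adjusted p = 8.2e-10), or 4.09 without 0 µM replicate 1 and 5.54 without replicate 3. ABCC5, known for inositol phosphate transport, was lower, at −1.68 ± 0.60 (adjusted p = 0.025), a call lost without 0 µM replicate 1 or 100 µM replicate 2 or 3 (adjusted p 0.055 to 0.10).

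SCL14 is a partner of TGA factors at genes of detoxification, and NAC factors act below it. Of 11 genes of this branch 9 were measured, of which 3, 5 and 6 were called higher at 1, 10 and 100 µM against 0 µM and 0 lower, with medians of 0.93, 1.304 and 1.32. Over all genes 13.5%, 22.4% and 23.8% were called higher. The call of TGA3 at 100 µM was lost without replicate 1 of that dose (change of 0.79). TGA1, TGA5 and TGA6 were not called higher at 100 µM. TGA1 had 19.5 ± 11.3 CPM at 100 µM and 26.5 ± 0.79 CPM at 0 µM, and TGA5 4.38 ± 1.88 and 5.41 ± 0.89 CPM (SD, n = 3 each). With total-count scaling 3 were called higher at each dose, and 0, 1 and 2 lower. NAC102 changed by 4.18 ± 0.24 at 100 against 0 µM (adjusted p = 2.5e-12), ATAF1 by 2.99 ± 0.19 (adjusted p = 1.7e-11), NAC032 by 2.32 ± 0.26 (adjusted p = 2.0e-07) and SCL14 by 1.74 ± 0.37 (adjusted p = 0.00049). SCL14 had 64.3, 28.2 and 17.0 CPM at 100 µM, and its change without replicate 1 of that dose was 1.10 (adjusted p = 0.0050). No called gene of these lists changed its sign with RLE, reference-gene or total-count scaling.

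The genes outside the family whose level followed each member most closely were sought among 6699 genes with a mean of at least 10 CPM, by Pearson correlation of log2 (CPM + 0.5) over the 12 libraries. The libraries and doses are shared by all genes, so the values are descriptions. For GSTU10 they were ATR2 (r = 0.99), a cytochrome P450 reductase, and XBAT35 (r = 0.98), a ubiquitin ligase. For GSTU24 they were ORP3B (r = 0.93) and AT2G41380 (r = 0.93), which also had their highest mean at 1 µM (102.8 and 221.4 CPM). For GSTU19 they were the calreticulin gene CRT3 (r = 0.92) and SIR (r = 0.92), which encodes sulfite reductase of sulfur assimilation. For GSTU7 they were AT4G11860 (r = 0.89) and the protein kinase gene MPK19 (r = 0.87). For GSTU25, which had few counts, they were AT1G14060 (r = 0.89) and SLP2 (r = 0.89).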

How the data were processed

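MARS-seq libraries of 12 samples were grouped by the CHX dose in their labels. Per the labels and the study's methods, the authors used bcl2fastq 2.17.1.14, cutadapt 1.8.3, STAR to Araport11 and HTSeq, and kept genes with at least 5 reads in at least 1 sample. The deposited counts are whole reads per gene for 12905 genes, named as having no filter on molecular identifiers, so PCR copies may be included. The normalized signal deposited by the authors is the same count over a library's own factor, within a relative deviation of 5.1e-15. The log2 values deposited by the authors were read as regularized log2 values of DESeq2. Only the counts were tested.

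Counts were fitted with edgeR 4.0.16 (R 4.3.3, TMM, 1 mean per dose, all 12 libraries, glmQLFit and glmQLFTest). The filter of 5 reads in 1 library removed 0 genes. Intervals of fold changes are 95%. Where 1 to 3 counts stood in a group, summed counts were compared with exact binomial intervals. Alternatives were other scalings, filterByExpr, no filter, DESeq2 1.42.0, a replicate term, the 2 doses alone, other thresholds, thinned libraries and each library left out.

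Of the 12905 identifiers, 12831 matched a RefSeq locus tag of TAIR10.1, the members included. The gene models used for counting were Araport11, so coordinates describe the RefSeq models. The members and lists were chosen with earlier results of these data known. Named genes were all members, measured tau-class genes, up to 4 genes of each other list with the smallest adjusted p at 100 against 0 µM, and the 2 genes most like each member. A few others are named to give limits of the counts of a list or of a scaling. Data were simulated at 100 against 0 µM on 12487 genes, of which 200 were changed, drawn from genes above a minimum mean level. Of genes changed by 1, 2 and 3 on the log2 scale, 26.9%, 79.1% and 84.8% had an adjusted p under 0.05 with the right sign. Of unchanged genes 0.0326% had an adjusted p under 0.05. The 2-fold limit was not applied, and in the data 3072 genes were called higher and 1927 lower. These rates thus do not describe the calls made here, nor members with few counts. The comparison of 100 with 1 µM and the ratios other than GSTU24 to GSTU25, and leaving out each library for genes that are not members, were added after seeing the data.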

Additional observations from a re-analysis of the deposited data

How the results depend on the processing

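At 1 against 0 µM, 3 members were called higher, and 2 were with RLE, reference-gene or total-count scaling, where the call of GSTU7 was lost. That call was also lost with filterByExpr, DESeq2 or thinned libraries and without 0 µM replicate 1 or 1 µM replicate 1. In the joint test 4 members passed. GSTU19 did not pass with total-count scaling (edgeR adjusted p = 0.12), nor GSTU7 without 0 µM replicate 1 (0.074). The counts of both stayed within 1.5 times in all alternatives. At 10 against 0 µM, 2 members were called higher, and 1 was with total-count scaling, DESeq2, only the 2 doses compared, an adjusted p under 0.01 or thinned libraries, and 4 with the adjusted p alone, while leaving out 1 library gave 1 to 2. At 100 against 0 µM 2 were called higher with the adjusted p alone, instead of 1. At 10 against 1 µM 1 was called higher with reference-gene scaling or the adjusted p alone, instead of 0, and leaving out 1 library gave 0 to 1. In the same comparison 0 were called lower, instead of 1, with reference-gene scaling, DESeq2, an adjusted p under 0.01 or thinned libraries, and leaving out 1 library gave 0 to 1. At 100 against 10 µM leaving out 1 library gave 0 to 1 called lower. At 100 against 1 µM, a comparison chosen after seeing the data, 1 was called higher with the adjusted p alone and 3 lower with total-count scaling, instead of 0 and 1. The ratio of GSTU24 to GSTU25 had p = 0.0050 with a prior of 2 CPM and p between 0.035 and 0.27 when 1 library was left out (exact permutation).

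Signs turned with total-count scaling for GSTU19 (−0.23, −0.29 and −0.45 at 1, 10 and 100 against 0 µM, −0.059 at 10 against 1 µM, −0.16 at 100 against 10 µM and −0.22 at 100 against 1 µM), GSTU7 (−0.027 and −0.40 at 10 and 100 against 0 µM) and GSTU10 (−0.19 at 100 against 1 µM). GSTU7 turned at 10 against 1 µM with reference-gene scaling (0.10) and at 100 against 10 µM without 100 µM replicate 3 (leaving out 1 library gave −0.35 to 0.074). The change of GSTU19 at 100 against 10 µM, 0.04, was −0.043 with only the 2 doses compared and −0.16 to 0.13 when 1 library was left out. The cause was not tested. The other 4 planned pairs of neighbouring genes from the list of 10 loci were not run, since 1 or both genes of each are not analysed here.

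Replicate numbers were not taken to pair the samples. Correlations of same-numbered samples lay between −0.18 and 0.29, and most were positive. Each library at 1 µM correlated best with the 0 µM library of the same number, while in every other comparison some did not. These values do not settle whether the numbers pair the samples. With a replicate block, 3, 2 and 1 members were called higher at 1, 10 and 100 against 0 µM, 1 lower at 10 against 1 µM and at 100 against 1 µM, and 4 passed the joint test, as without it. At 1 count per library worth up to 0.794 CPM, GSTU25 and GSTU24 at 0 and 100 µM were limited by depth.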
